A study of Mus musculus with 4 samples.

Results

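Arachidonic acid is held in membrane phospholipids until phospholipase A2 enzymes free it, and it is then turned into prostaglandins by cyclooxygenases and terminal synthases or into leukotrienes by 5-lipoxygenase and its partners. Prostaglandin E2 acts on gut epithelium, blood vessels and leukocytes, prostaglandin D2 and the cysteinyl leukotrienes are products of mast cells and tuft cells among others, and leukotriene B4 attracts neutrophils. Breakdown starts with an NAD-dependent dehydrogenase that oxidises the hydroxyl group of active prostaglandins. The genes described here are 10 enzymes and partner proteins of this pathway: the phospholipases Pla2g4a and Pla2g4c, the cyclooxygenases Ptgs1 and Ptgs2, the prostaglandin synthases Ptges and Hpgds, the dehydrogenase Hpgd, and Alox5, Alox5ap and Ltc4s of the leukotriene branch. They were chosen by symbol, from probe sets annotated with exactly 1 symbol, with the values of CFLARs Tg against wild-type in view. Where a gene has several probe sets, the brightest on average stands for it. Of the 10 genes, 9 had a probe set of their own among the 19938 genes of the array, 1 probe set each, and Ptgs1 was not analysed here.

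Whole small intestine RNA of mice on the C57BL/6 background went onto 4 Affymetrix arrays with 1 label, and values are the deposited log2 levels. CFLARs Tg mice, which carry a transgene for the short form of the caspase-8 regulator cFLIP, gave 2 arrays, titled XCFX (replicate 1) and XCFY (replicate 2). Wild-type mice gave the other 2 arrays, titled XX (replicate 1) and XY (replicate 2). By its title the series concerns ileitis of preterm mice in which gut epithelium dies by necroptosis, and by its design text it set out to profile gene expression in both genotypes. The promoter of the transgene, its copy number, the age of the mice and the segment of intestine are not stated in the sources used here. Nor is the number of animals behind each array, so p-values measure only the spread between these arrays. That spread also holds the difference between the title notations: Xist, and Eif2s3y, Kdm5d and Uty of the Y chromosome, followed the notation on all 4 arrays. Xist read 12.90 (XCFX) and 6.62 (XCFY) in CFLARs Tg, and 12.92 (XX) and 6.78 (XY) in wild-type. By these genes the 2 arrays of each genotype differ in sex and so hold RNA of different animals. Sex cannot be told apart from other differences between them. Where they should be silent these genes read 5.13 to 6.78, which serves as a scale for background.

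All 9 markers of intestinal epithelium, among them Cdh1, Krt8 and Muc2, read between 9.53 and 13.8, well above that range. The deposited values had array medians of 8.31 to 8.33. Cflar, the gene of the transgene, read 9.49 and 9.30 in CFLARs Tg intestine, against 9.34 and 9.28 in wild-type intestine, and the genotypes overlapped. Whether its probe set detects the transgene was not given in the sources used here, so it does not check the labels. The log2 difference between arrays of one genotype had an SD over autosomal genes of 0.231 in CFLARs Tg and 0.125 in wild-type. Alb, a liver gene, read 11.20 and 6.57 in CFLARs Tg (XCFX, XCFY), against 11.47 and 12.72 in wild-type. Levels were not compared between genes, since probe sets differ in brightness.

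The comparison was fitted over the 13956 genes left after removing the 30% with the lowest mean, and p-values were adjusted over all of them. Each difference is the CFLARs Tg mean minus the wild-type mean in log2 units, and SE is the moderated standard error from limma. A gene is called at an adjusted p under 0.05. Since the genes were listed with this comparison's results already known, the differences and adjusted p-values below describe the fit and support nothing further. Of the 9 genes, 3 rose and 2 fell in CFLARs Tg intestine. Over all genes fitted, 19.3% were called, 8.44% upward and 10.9% downward. In 9 of 9 genes the CFLARs Tg arrays did not overlap with the wild-type arrays, with 6 of them higher and 3 lower. Over all genes fitted this was so for 69.6%, with 32.0% higher and 37.6% lower. The median difference was 0.35 over the 9 genes and -0.01 over all genes. Because 2 of the genes passed the filter on low values only through their CFLARs Tg readings (Pla2g4c and Alox5 averaged 7.14 and 7.45 in wild-type, against a limit of 7.48), these counts and medians are descriptions.

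The stretches just before the starts of the 3 genes that rose are shown because these genes moved the same way. The sequences are from RefSeq on build GRCm38.p6, 250 bases up to the annotated start, 5′ to 3′ on the gene's strand, and 9 of the 10 genes had an entry there. Pla2g4c has 2 annotated starts, on the plus strand at chr7:13325417-13325666 and chr7:13329072-13329321. Ptgs2 lies on the plus strand at chr1:150099781-150100030 and Ptges on the minus strand at chr2:30903298-30903547. Capitals mark matches to TTNNGNAA, a loose form of the site of C/EBP factors, and to the CCAAT box.
Pla2g4c, first start: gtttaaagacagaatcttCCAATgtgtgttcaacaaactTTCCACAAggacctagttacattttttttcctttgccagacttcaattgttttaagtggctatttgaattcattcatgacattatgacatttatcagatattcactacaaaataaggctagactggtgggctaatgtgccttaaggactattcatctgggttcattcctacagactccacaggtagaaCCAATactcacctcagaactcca
Pla2g4c, second start: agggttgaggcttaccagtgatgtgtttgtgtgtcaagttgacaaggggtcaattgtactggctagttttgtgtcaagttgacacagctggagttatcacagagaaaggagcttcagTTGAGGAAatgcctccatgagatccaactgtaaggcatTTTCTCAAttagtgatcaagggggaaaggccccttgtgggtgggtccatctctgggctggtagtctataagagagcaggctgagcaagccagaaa
Ptgs2: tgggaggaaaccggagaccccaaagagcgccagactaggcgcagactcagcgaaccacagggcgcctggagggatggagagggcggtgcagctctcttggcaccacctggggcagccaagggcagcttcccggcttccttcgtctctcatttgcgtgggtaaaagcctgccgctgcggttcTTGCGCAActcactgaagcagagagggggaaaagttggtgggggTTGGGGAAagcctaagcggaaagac
Ptges: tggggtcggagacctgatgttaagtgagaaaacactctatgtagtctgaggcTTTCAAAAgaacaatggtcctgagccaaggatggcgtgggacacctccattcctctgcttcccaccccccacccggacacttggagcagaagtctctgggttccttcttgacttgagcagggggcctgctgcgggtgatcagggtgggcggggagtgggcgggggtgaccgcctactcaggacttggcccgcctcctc

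The loose C/EBP letters occurred before both starts of Pla2g4c, before Ptgs2 and Ptges, before Hpgds and Hpgd, which fell, and before 1 start of Pla2g4a, and they occur in 36.9% of the 32851 promoters of the same length. The match in Ptgs2 at base 69 before the start, TTGCGCAA, reads the same on both strands. The CCAAT box (CCAAT) was found before the first start of Pla2g4c and occurs in 33.9% of all promoters. Both strands were also searched for TATAAA (12.4% of all promoters), for TGACG of the cAMP response element (17.8%), for the AP-1 letters TGANTCA (6.75%), for the STAT letters TTCNNNGAA (7.02%), for the core of the interferon-stimulated response element (2.98%), and for the NF-kB site (0.673%). None of these had a match in the 4 windows shown, which says only that these letters are not within those 250 bases. The E box letters CANNTG, which are not capitalised above, occur in 66.2% of all promoters and were found in each of the 4 windows. The C/EBP matches did not overlap with a CCAAT match, and before the second start of Pla2g4c the C/EBP match at base 133 overlapped with the E box match at base 136.

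**Figure D1:**
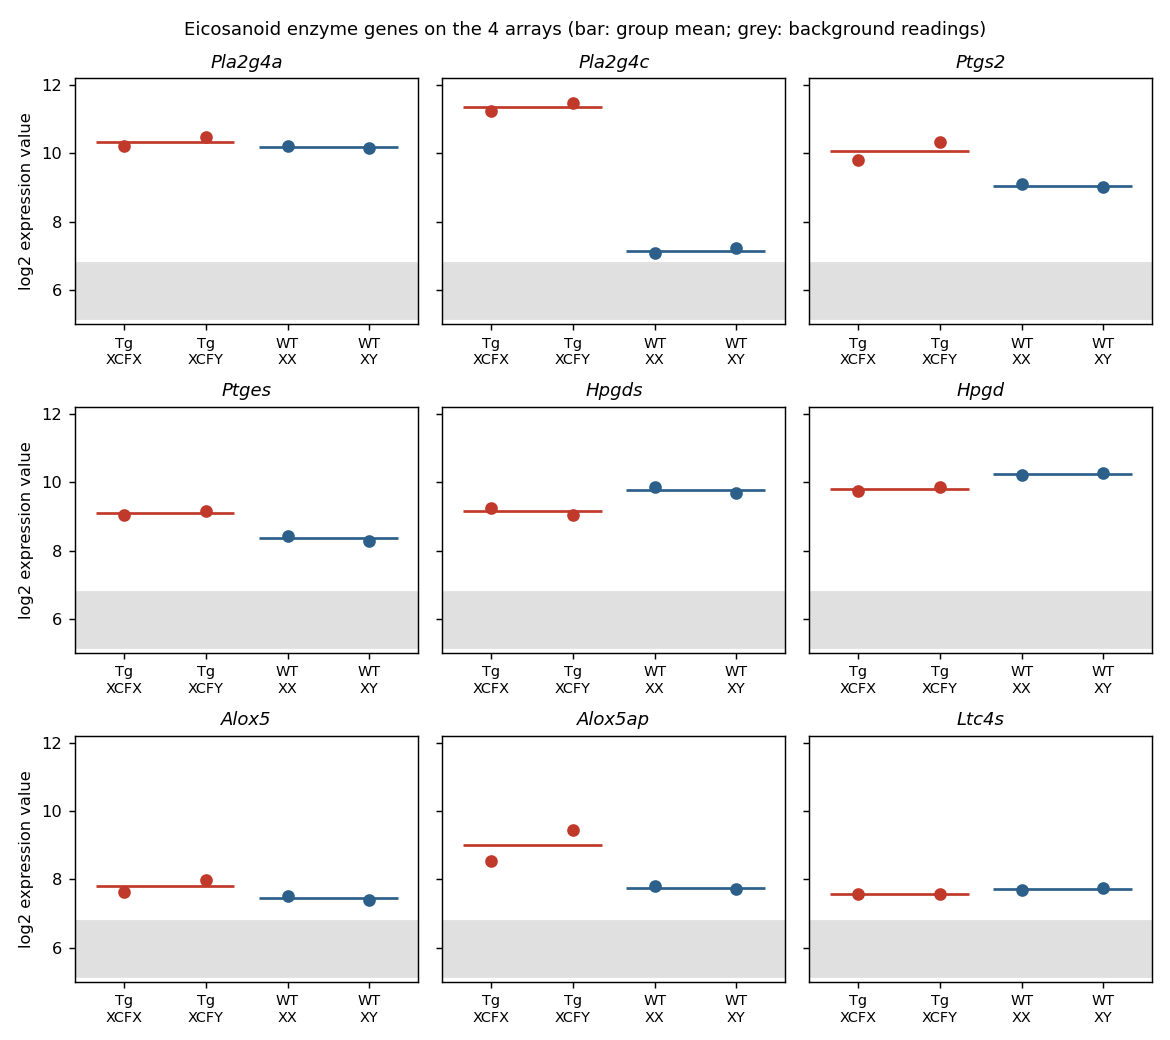
Deposited log2 expression values (y axis) of the 9 genes on the 4 arrays, CFLARs Tg in red and wild-type in blue. Points are arrays, bars are means of 2 arrays, and the grey band is the range of background readings from 5.13 to 6.78. Pla2g4c sits at 11.3 and 11.5 in CFLARs Tg and at 7.07 and 7.22 in wild-type, and the other 8 genes differ by less.

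Release of arachidonate was represented by a pair of cytosolic phospholipases. Pla2g4c encodes cytosolic phospholipase A2 gamma, which in humans works without calcium and lacks the C2 domain of its relative. Pla2g4c read 11.26 and 11.48 in CFLARs Tg intestine (XCFX and XCFY), against 7.07 and 7.22 in wild-type intestine (XX and XY). Both CFLARs Tg arrays lay over 4 log2 units above both wild-type arrays, whose readings were close to the top of the background range. The means were 11.37 ± 0.16 in CFLARs Tg and 7.14 ± 0.10 in wild-type (SD, n = 2), a 18.7-fold difference (log2 difference 4.22, SE 0.10, limma adjusted p = 0.000848). Only 5 genes of the 13956 rose by more. A change in RNA per cell and a change in the number of cells of a type cannot be told apart in whole tissue, here and for the genes below. The difference was 4.19 between the XCFX and XX arrays and 4.26 between the XCFY and XY arrays, so it was about as large under both notations. Pla2g4c was called under each of the 12 other settings tried, also against a minimum difference of 0.5 (limma treat, adjusted p = 0.00118), which 0.451% of all genes passed.

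Pla2g4a encodes cytosolic phospholipase A2 alpha, the calcium-dependent enzyme that prefers arachidonate. It read 10.21 and 10.47 in CFLARs Tg intestine, against 10.21 and 10.17 in wild-type intestine. The XCFX array stood only 0.003 above the higher wild-type array, and the XCFY array stood higher. The difference of 0.15 (SE 0.10) was not called (limma adjusted p = 0.332). The difference was 0.28 without CFLARs Tg replicate 1 and 0.02 without CFLARs Tg replicate 2. In the RefSeq table Pla2g4a and Ptgs2 are neighbours on chromosome 1, with 0 protein-coding genes between them.

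The 5 genes whose 4 values moved most like those of Pla2g4c were H2-M2, Saa3, Cxcl2, Cxcl9 and Nos2. Likeness was measured over the 4 arrays as the root mean squared distance between log2 values after each gene's mean was removed, and it was 0.11 for H2-M2, 0.15 for Saa3, 0.25 for Cxcl2, 0.29 for Cxcl9 and 0.36 for Nos2. H2-M2 is a nonclassical class I histocompatibility gene, Saa3 encodes an acute-phase protein, Cxcl2 and Cxcl9 encode chemokines and Nos2 encodes inducible nitric oxide synthase. Their own differences ran from 3.53 for Nos2 to 4.42 for H2-M2, and in wild-type H2-M2 and Cxcl2 read within background. H2-M2, Saa3, Cxcl2 and Nos2, like Pla2g4c, passed the filter on low values only through their CFLARs Tg readings. Genes with a difference of similar size come out near each other by this measure, so the likeness is a description, and shared regulation was not tested.

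Ptgs2 and Ptges, which act one after the other, were higher in CFLARs Tg intestine. Ptgs2 encodes cyclooxygenase-2, the inducible enzyme that makes prostaglandin H2. It read 9.82 and 10.33 in CFLARs Tg intestine, against 9.09 and 9.01 in wild-type intestine. Both CFLARs Tg arrays lay above both wild-type arrays, with the XCFY array highest. The means were 10.07 ± 0.36 in CFLARs Tg and 9.05 ± 0.05 in wild-type (SD, n = 2), a 2.03-fold difference (log2 difference 1.02, SE 0.18, limma adjusted p = 0.0298). Ptges encodes microsomal prostaglandin E synthase-1, which turns prostaglandin H2 into prostaglandin E2. It read 9.05 and 9.17 in CFLARs Tg intestine, against 8.43 and 8.28 in wild-type intestine. The arrays of each genotype lay closer to each other than to any array of the other genotype. The difference of 0.75 (SE 0.08) was a 1.69-fold rise (limma adjusted p = 0.0179).

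Hpgds and Hpgd, in contrast, were lower in CFLARs Tg intestine. Hpgds encodes the hematopoietic prostaglandin D synthase, known from mast cells and tuft cells. It read 9.25 and 9.05 in CFLARs Tg intestine, against 9.87 and 9.69 in wild-type intestine. Within each genotype the array of the XY notation was the lower one, and the genotypes did not overlap. The log2 difference of -0.63 (SE 0.10) was a 1.55-fold fall (limma adjusted p = 0.0270). Hpgd encodes 15-hydroxyprostaglandin dehydrogenase, which carries out the first step of prostaglandin inactivation. It read 9.75 and 9.87 in CFLARs Tg intestine, against 10.23 and 10.28 in wild-type intestine. Again no CFLARs Tg array reached a wild-type array. Hpgd fell 1.36-fold (log2 difference -0.44, SE 0.07, limma adjusted p = 0.0254). Ptges2, another prostaglandin E synthase gene, differed by 0.01 (limma adjusted p = 0.955), and Ptgds, the other prostaglandin D synthase gene, by 0.03 (limma adjusted p = 0.730). Neither was called, and their arrays overlapped between the genotypes. Ptges3, also described as a prostaglandin E synthase gene, rose 1.53-fold (limma adjusted p = 0.0341).

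The calls of Ptgs2, Ptges, Hpgds and Hpgd were lost when either wild-type array was left out and the CFLARs Tg arrays alone gave the spread. With wild-type replicate 1 left out, the limma adjusted p-values were 0.188 for Ptgs2, 0.129 for Ptges, 0.196 for Hpgds and 0.198 for Hpgd. With wild-type replicate 2 left out, they were 0.164, 0.135, 0.143 and 0.186 in the same order, while their directions held. Under both settings Pla2g4c was called (limma adjusted p = 0.00939 and 0.00967). The share of all genes called was then 0.301% and 0.287%.

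**Figure D2:**
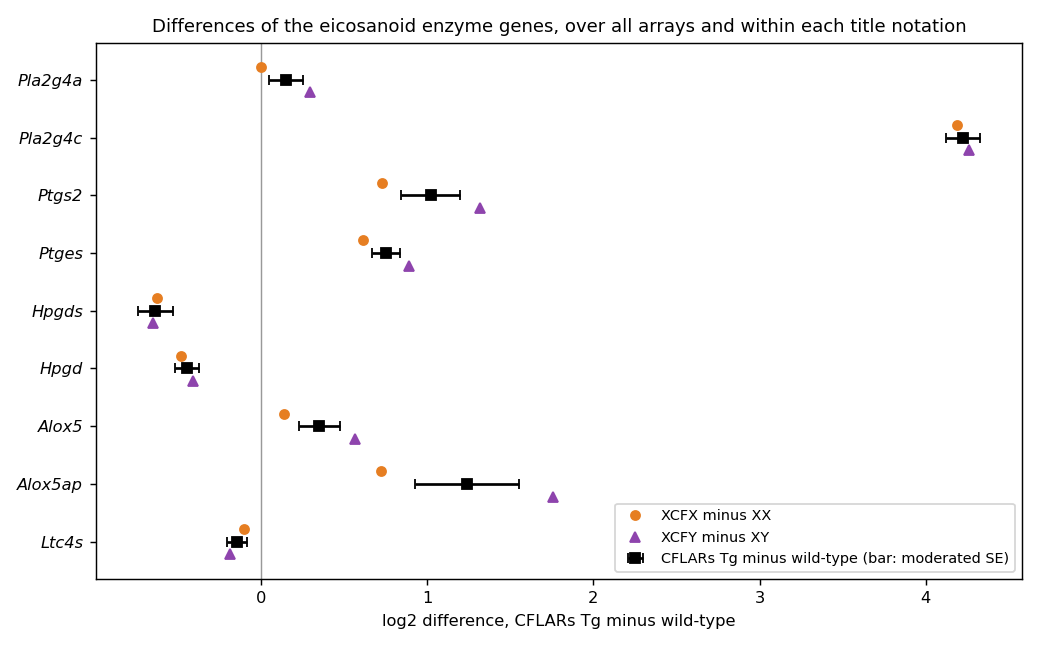
Log2 differences, CFLARs Tg minus wild-type (x axis), of the 9 genes. Squares with bars are the difference over all arrays with its moderated SE, circles the XCFX minus XX difference and triangles the XCFY minus XY difference, which have no replicate. All 9 genes have both pair differences on one side of 0, and Alox5ap has the widest distance between them, 0.72 and 1.76.

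Of Alox5ap, Alox5 and Ltc4s in the leukotriene branch, 0 were called (limma). Alox5ap encodes FLAP, the membrane protein that presents arachidonate to 5-lipoxygenase. It read 8.53 and 9.46 in CFLARs Tg intestine, against 7.81 and 7.71 in wild-type intestine. Both CFLARs Tg arrays lay above the wild-type arrays, but they also stood 0.93 apart from each other. The SD was 0.66 in CFLARs Tg and 0.08 in wild-type, and the difference of Alox5ap was 1.24 (SE 0.31, limma adjusted p = 0.0560). The value depended on the CFLARs Tg array: it was 1.70 without CFLARs Tg replicate 1 and 0.78 without CFLARs Tg replicate 2. Alox5ap was called with the title notation as a block (limma adjusted p = 0.0249), when 22.3% of all genes were called.

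Alox5 encodes 5-lipoxygenase, which makes the unstable leukotriene A4. It read 7.64 and 7.97 in CFLARs Tg intestine, against 7.50 and 7.40 in wild-type intestine. The XCFY array was again the highest of the 4, and the XCFX array stood 0.14 above the nearer wild-type array. The difference of 0.35 (SE 0.13) was not called (limma adjusted p = 0.111). It was 0.52 without CFLARs Tg replicate 1 and 0.19 without CFLARs Tg replicate 2. Ltc4s encodes leukotriene C4 synthase, which joins leukotriene A4 to glutathione. It read 7.58 and 7.57 in CFLARs Tg intestine, against 7.68 and 7.76 in wild-type intestine. The 4 readings lay within 0.2 log2 units of each other, and the difference of -0.14 (SE 0.06) was not called (limma adjusted p = 0.154). The size of the difference was larger between the XCFY and XY arrays than between the XCFX and XX arrays in 8 of the 9 genes, with Hpgd as the exception. This was so for 60.8% of all genes fitted.

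Markers of cell types known to hold these enzymes were read on the same arrays. Of 8 fitted neutrophil markers 7 rose and 0 fell, among them S100a9 (9.97 ± 0.85 in CFLARs Tg and 7.25 ± 0.15 in wild-type, SD, n = 2) and Ltf, while Mmp9 differed by 0.76 and was not called. Of the 7, 6 passed the filter on low values only through their CFLARs Tg readings, so the count is a description. Of all 14 neutrophil markers, 13 were higher in both CFLARs Tg arrays than in the wild-type array of the same notation. The share of all genes for which this was so was not computed. The 13 include Elane, which was higher by only 0.04 and 0.11, and the exception was Camp (-0.08 and 0.03). Both were left out of the fit by the filter on low values. The values of all 14 on a linear scale summed to 4607 and 9506 in the CFLARs Tg arrays, against 2382 and 2411 in the wild-type arrays. Of 13 fitted monocyte and macrophage markers 0 rose and 1 fell (Mertk, by 0.84), while 11 of the 13 were higher in CFLARs Tg and 2 lower, with a median difference of 0.30. The widest of these upward differences, picked out after their values were seen, were 0.91 in Fcgr3, 0.99 in Lyz2, 1.11 in Cd14 and 1.22 in Itgam, and 0 of the 4 were called (limma adjusted p from 0.0522 to 0.0702). The 14 markers on the array summed to 11153 and 14097 in CFLARs Tg, against 10872 and 11005 in wild-type. Such sums weigh bright probe sets most, and Mertk, which fell, was the brightest of this list on average. No marker of the neutrophil or macrophage lists read within background on all 4 arrays. In wild-type, though, the means of the neutrophil markers Cxcr2, S100a8, Retnlg, Mmp8 and Trem1 lay within background, from 6.02 to 6.74. The part of these cells in the differences of the pathway genes was not tested.

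Tuft cell markers were read beside Hpgds. Of 9 fitted markers 0 rose and 0 fell (limma), with a median difference of -0.02, and all 12 summed to 2725 and 2774 in CFLARs Tg, against 2753 and 2731 in wild-type. Dclk1 averaged 8.93 ± 0.11 in CFLARs Tg and 8.87 ± 0.01 in wild-type, Trpm5 8.21 ± 0.13 and 8.38 ± 0.00, and Plcb2 8.15 ± 0.13 and 8.35 ± 0.07 (SD, n = 2). Rgs13 was within background on all 4 arrays. Of 7 fitted mast cell markers 2 rose and 0 fell, and the 11 on the array summed to 3225 and 3747 in CFLARs Tg, against 2737 and 2572 in wild-type. Ms4a2 and Fcer1a, which encode chains of the IgE receptor, were within background on all 4 arrays. Of the eosinophil markers 1 passed the filter on low values, and Epx, Ccr3 and Il5ra were within background. Enterocyte markers, 9 of 9 fitted ones, read lower in CFLARs Tg and 0 were called (limma), with sums of 91287 and 66595 in CFLARs Tg, against 106904 and 107350 in wild-type. Of 10 fibroblast markers 1 fell (median difference -0.05), of 9 endothelial markers 3 fell (-0.23), of 7 smooth muscle markers 0 were called (0.17), of 9 general epithelial markers 2 rose and 1 fell (0.01), and of 6 fitted liver genes 1 fell (-1.10). The part of any of these cells in the differences was not tested.

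**Figure D3:**
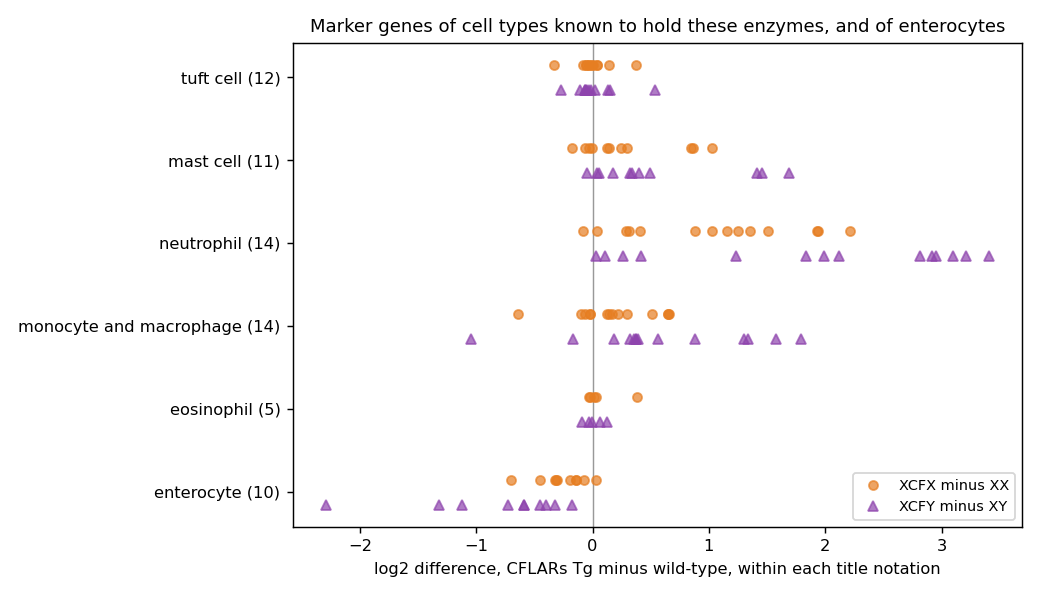
Log2 differences between the CFLARs Tg and the wild-type array of the same title notation (x axis) for every marker on the array, by cell type (number of markers in brackets). Circles are XCFX minus XX and triangles XCFY minus XY. Neutrophil markers reach 2.21 and 3.41, while tuft cell markers stay between -0.33 and 0.53.

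Beyond these enzymes, 78 further genes of the pathway were listed by role, of which 73 were on the array and 56 passed the filter on low values. In CFLARs Tg intestine 8 of the 56 rose and 8 fell, which is 28.6%, beside the 19.3% of all genes fitted, and their median difference was 0.00. Among 24 genes listed under the release and return of arachidonate and other fatty acids, 5 rose and 3 fell. Mboat1, a lysophospholipid acyltransferase gene, rose 3.01-fold: it read 11.18 and 11.71 in CFLARs Tg intestine, against 9.80 and 9.91 in wild-type intestine (SE 0.19 on the log2 scale, limma adjusted p = 0.0187). Mboat7, of the same list, differed by 0.05 and was not called (limma adjusted p = 0.669). Acsl4, which links arachidonate to coenzyme A, rose 1.62-fold. The secreted phospholipases Pla2g2f and Pla2g2e rose 1.67-fold and 1.26-fold, and Pla2g16, now named Plaat3, rose by 0.59 on the log2 scale. The calcium-independent phospholipase gene Pla2g6 fell 1.67-fold, the monoacylglycerol lipase gene Mgll 1.34-fold and Lpcat3, which puts polyunsaturated fatty acids into phosphatidylcholine, 1.29-fold. Faah, the gene of fatty acid amide hydrolase, read 10.81 and 10.06 in CFLARs Tg, against 11.34 and 11.36 in wild-type, and was not called (limma adjusted p = 0.0689).

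In prostanoid synthesis 1 of 7 fitted genes rose and 1 fell. Ptges3, which encodes the co-chaperone p23 and is also described as a cytosolic prostaglandin E synthase, rose 1.53-fold. Cbr1, a carbonyl reductase gene whose enzyme can turn prostaglandin E2 into prostaglandin F2 alpha, fell 1.82-fold. Among 6 genes of breakdown and transport, Ptgr2, which acts after Hpgd by reducing 15-keto prostaglandins, fell 1.60-fold, and the exporter gene Abcc4 rose 1.43-fold. Ptgr2 read 9.48 and 9.37 in CFLARs Tg intestine, against 10.12 and 10.08 in wild-type intestine. Like Hpgd, it was lower in both CFLARs Tg arrays than in both wild-type arrays. Of 6 fitted prostanoid receptor genes 1 rose, Ptger4, the gene of the EP4 receptor for prostaglandin E2. Ptger4 read 10.19 and 10.11 in CFLARs Tg intestine, against 9.71 and 9.77 in wild-type intestine, a 1.33-fold rise (limma adjusted p = 0.0254). Ptger1 differed by -0.24 and was not called.

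The other leukotriene genes were lower or not called. Lta4h, whose enzyme makes leukotriene B4, fell 1.23-fold, and Dpep1, a dipeptidase gene that acts on leukotriene D4, fell 1.68-fold. Dpep1 read 9.73 and 9.64 in CFLARs Tg intestine, against 10.31 and 10.55 in wild-type intestine. Cyp4f18, a P450 gene that in mice breaks down leukotriene B4, differed by 0.37 (SE 0.18, limma adjusted p = 0.204). Of the receptor genes 3 were fitted and 0 were called (limma), Ltb4r1 with a difference of -0.20 and Cysltr1 with 0.01 among them. Among 3 fitted genes of other lipoxygenases and fatty acid epoxide enzymes, Cyp2j6 fell 1.73-fold. Ephx2, the gene of soluble epoxide hydrolase, read 10.57 and 9.36 in CFLARs Tg, against 11.50 and 11.49 in wild-type, and was not called (limma adjusted p = 0.0616). Of the 16 called genes, 0 were called without wild-type replicate 1 or without wild-type replicate 2 (limma), when 19 and 21 of the 56 had an unadjusted p under 0.05.

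**Figure D4:**
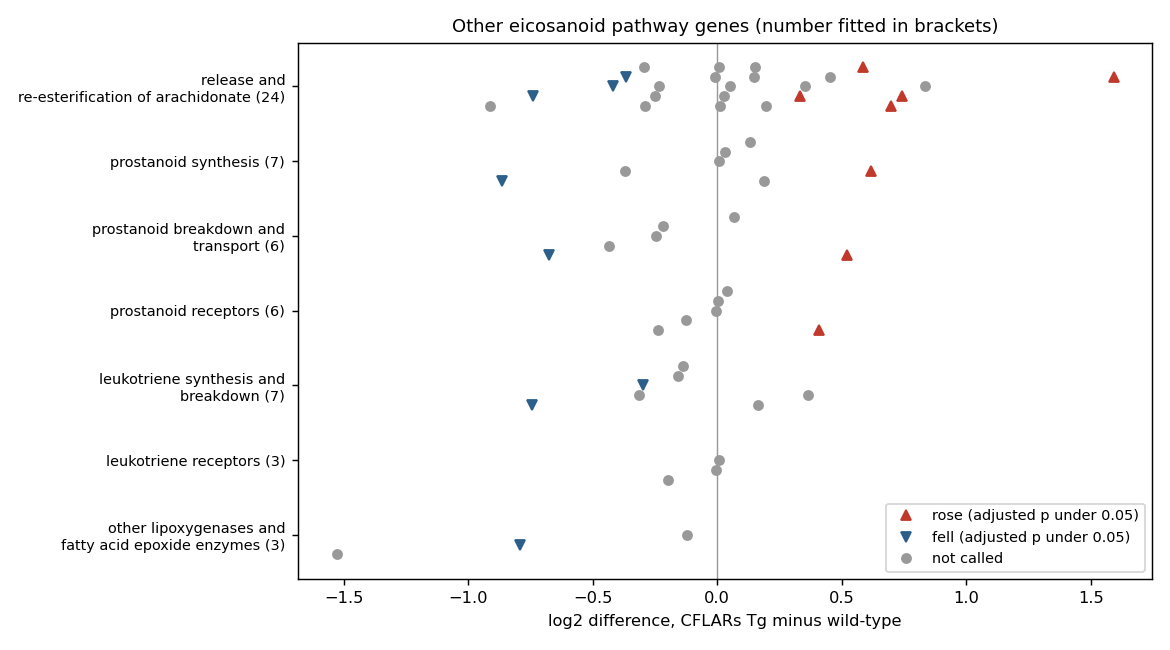
Log2 differences, CFLARs Tg minus wild-type (x axis), of the 56 other pathway genes fitted, in rows by role with the number fitted in brackets. Red triangles rose, blue triangles fell and grey circles were not called; points are spread vertically for legibility only. Mboat1 stands furthest to the right at 1.59 and Ephx2 furthest to the left at -1.53.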

How the data were processed

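The authors deposited a table of log2 values for 28856 probe sets. Per the labels' protocols, total RNA was extracted with Trizol, and biotin-labelled cRNA was prepared by the Affymetrix protocol. The sources used here give no summarisation, background correction or normalization. The log2 values were used as deposited, and 0 were missing. The platform annotation gave 1 symbol for 21789 probe sets, several for 1621 and none for 5446, and only the first were named. A gene with several took the one brightest on average. RefSeq gene tables (GRCm38.p6) held the gene identifier of 21698 of the probe sets with 1 symbol and changed 0 symbols.

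The genotypes (2 arrays each) were compared with lmFit and eBayes of limma 3.58.1 in R 4.3.3, without covariates, with Benjamini-Hochberg adjustment over 13956 genes and a limit of 0.05. It had 2 residual and 2.64 prior degrees of freedom and was tested on simulated data. The number of arrays limits the precision. By rule, the named genes were all pathway enzymes of the opening. They also took in further pathway genes that were called or had one of the 2 largest differences of their role. The 5 genes nearest to the enzyme gene with the largest difference, and up to 3 markers of each list with the highest mean, were added. Genes outside these rules were named too, among them Ptges2, Ptgds, Mboat7, and markers within background or with wide differences. The genes, lists, tests and other settings were chosen with earlier results of these data known. Other settings were quantile normalization, median centring, no filter, the lowest 50% left out, the median over probe sets, an intensity trend, title notation as a block, a minimum difference of 0.5, and leaving out each array.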

Additional observations from a re-analysis of the deposited data

Results flagged for a closer look

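The XCFX minus XX and the XCFY minus XY differences had opposite signs for some genes named above or marking a cell type. The 5 listed here leave out others, such as Ptges2 (0.145 and -0.129) and the mast cell marker Mcpt4 (-0.065 and 0.396). Each difference rests on 1 array a side, and the difference between the notations was not tested. The differences listed were -0.15 and 0.16 for the leukotriene receptor gene Cysltr1, and -0.0315 and 0.147 for the tuft cell marker Dclk1. For the macrophage marker Csf1r they were -0.10 and 0.19. For the mast cell markers they were -0.0042 and 0.0575 (Kit), and -0.0327 and 0.497 (Cpa3).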

How the results depend on the processing

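Of 105 refits of the 9 pathway enzyme genes under another setting, 88 kept their direction and side of the threshold, 12 lost a call, 5 gained one and 0 reversed. The 12 lost calls were those of Ptgs2, Ptges, Hpgds and Hpgd without wild-type replicate 1, without wild-type replicate 2 and against a minimum difference of 0.5 (adjusted p of 0.606 or more in the last). The 5 gained calls were those of Alox5ap with the title notation as a block and without either CFLARs Tg replicate, and of Alox5 and Pla2g4a without CFLARs Tg replicate 1. With 1 CFLARs Tg array left out, the wild-type arrays alone gave the spread. Quantile normalization, median centring, the median over probe sets, an intensity trend and no filter left the same 5 of 9 genes called, and so did leaving out the lowest 50%, which kept 6 of the 9. The number of all genes called was 2695, 63 against a minimum difference of 0.5, and 40 to 6559 when 1 array was left out, which changes what estimates the spread. For the 9 genes the count of 5 became 1 against the minimum difference and 1 to 8 with 1 array left out. For the 56 other pathway genes the count of 16 became 0 against the minimum difference (limma treat, 8 of 56 with an unadjusted p under 0.05) and 0 to 37 with 1 array left out. The number of the 9 genes that lay higher in CFLARs Tg was 6 in these refits with 1 array left out too, and 4 of the 6 kept when the lowest 50% were left out. The labels give no replicate numbers that pair the arrays. With the title notation as a replicate block, 1 residual degree of freedom was left, 3112 genes, 6 of the 9 and 21 of the 56 were called, and the deviations of arrays with like notation had a correlation of 0.01 across autosomal genes. Depth has no counterpart on these arrays. Readings near background, as those of Pla2g4c in wild-type, can understate a difference.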

Other observations

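Of the 7 fitted mast cell genes, 6 were higher in CFLARs Tg intestine and 2 of them were called, and the genes named here were chosen after their values were seen. The mast cell protease gene Mcpt1 read 7.77 and 8.32 in CFLARs Tg, against 6.74 and 6.63 in wild-type, where it lay within background, and it was left out of the fit by the filter on low values. The protease gene Mcpt2 read 8.62 and 8.91 in CFLARs Tg, against 7.75 and 7.45 in wild-type (limma adjusted p = 0.0199). Hdc, the gene of the enzyme that makes histamine, read 8.57 and 9.12 in CFLARs Tg, against 7.72 and 7.71 in wild-type (limma adjusted p = 0.0280). The other fitted genes were not called: Tpsb2 differed by 0.31, Cpa3 by 0.23, Mcpt4 by 0.17, Kit by 0.03 and Gata2 by -0.11. Cma1 differed by 0.29 and was left out of the fit by the same filter. Differences between these genes were not tested.

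Krt20, a keratin of mature gut epithelium and another gene chosen after its values were seen, read 12.18 and 11.68 in CFLARs Tg, against 10.56 and 10.61 in wild-type (limma adjusted p = 0.0202). Its XCFX reading was the higher of the CFLARs Tg arrays, unlike those of Pla2g4c, Ptgs2 and Ptges.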
